A study of Mus musculus with 25 samples.

Results

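Leydig cells are the cells between the seminiferous tubules of the testis that make testosterone. Here a Leydig cell is a barcode with a set minimum of RNA from 6 genes of Leydig function, which are the peptide hormone Insl3, the cholesterol carrier Star and the steroid enzymes Cyp11a1, Cyp17a1, Hsd3b1 and Hsd3b6. A barcode qualified if it held at least 300 unique molecular identifiers (UMIs, each standing for 1 captured transcript), at least 5 UMIs of the 6 genes, and at least 1% of its UMIs in these genes. Of 40295 barcodes of whole testis with at least 300 UMIs, out of 47450 deposited, 530 qualified. Because measured values selected the cells, the levels of the 6 genes and the excess over the other barcodes of a library are given as descriptions. The 6 genes stayed among all genes in the fits between strains, and no result is drawn from them there. What was tested against the other barcodes is whether a difference between strains was the same there.

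The study profiled dissociated testes of fertile and infertile mice by Drop-seq, in which droplets pair single cells with barcoded beads and transcripts are counted at their 3′ ends. The 21 libraries used here were, per the labels, 11 of wild-type (WT) C57BL/6 mice, 6 of Mlh3-/- and 2 of Cul4a-/- mice on a B6;129 background, and 2 of C57BL/6 mice with the transgene CNP eGFP BAC TRAP. The study's list of mouse lines names the substrain C57BL/6J for WT and CNP and a B6.129 line for Mlh3, so that the background of the Mlh3 mice is not certain. Mlh3 is needed for crossing over in meiosis, Cul4a is a scaffold of ubiquitin ligases, and the CNP line carries a knock-in transgene and is infertile for reasons the sources used here do not give. Enzymes were used to dissociate WT1 and WT2, and the rest were dissociated mechanically, and WT1, WT3 and Mlh3 replicates 1 and 2 were sequenced on a MiSeq, the rest on a HiSeq. By the labels, the mice were 3 months 1 day to 9 months 14 days old for WT, 2 months 21 days to 8 months 30 days for Mlh3, 1 month 18 and 21 days for Cul4a, and 2 months 14 and 16 days for CNP. No WT library of a mixed background was used here, so in the comparisons of Mlh3 or Cul4a with WT the mutation and the background cannot be told apart. The study's own sample sheet gives the ages of Cul4a to CNP and those of CNP to Cul4a, so the ages of these 2 strains are in doubt, and a part of age in any comparison with them was not tested. The labels name no tissue-specific driver of the deletions.

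In Leydig cells, luteinizing hormone binds its receptor Lhcgr and raises cyclic AMP, and Star then moves cholesterol into the mitochondrion. Cyp11a1 cuts the side chain of cholesterol to give pregnenolone, and Hsd3b1 or Hsd3b6, Cyp17a1 and Hsd17b3 carry the steroid on to testosterone. Insl3 is a relaxin-like hormone of Leydig cells, needed for testis descent in the fetus and used in the adult as a mark of mature Leydig cells.

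The 6 genes lie at these places in the mouse genome (GRCm38, GENCODE vM21). Insl3 is at chr8:71689214-71690575 and Star at chr8:25806555-25815982, both on the forward strand. Cyp11a1 is at chr9:58006411-58027023 on the forward strand and Cyp17a1 at chr19:46667165-46673172 on the reverse strand. Hsd3b1 at chr3:98852194-98859794 and Hsd3b6 at chr3:98805504-98814443 are paralogs on the reverse strand, and since reads can fit both, the split of UMIs between them is uncertain. RefSeq promoter windows (GRCm38.p6, 250 bases before to 50 after a start site) were found for 4 of the 6 genes. They were searched on both strands for AAGGTC, the core of the site bound by Nr5a1, the nuclear receptor that drives steroid enzymes. The window of Insl3 is shown because Insl3 gave the most UMIs of the 6 genes and its window was the only one with a match. A window of Cyp11a1 that holds no match stands beside it, and capitals mark the motif.
Insl3, chr8:71689002-71689301, forward strand: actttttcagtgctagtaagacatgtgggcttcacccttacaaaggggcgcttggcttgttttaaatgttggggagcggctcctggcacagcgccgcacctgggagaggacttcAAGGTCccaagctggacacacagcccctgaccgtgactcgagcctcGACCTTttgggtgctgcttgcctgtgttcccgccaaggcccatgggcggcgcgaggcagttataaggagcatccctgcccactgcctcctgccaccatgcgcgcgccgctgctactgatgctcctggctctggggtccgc
Cyp11a1, chr9:58014702-58015001, forward strand: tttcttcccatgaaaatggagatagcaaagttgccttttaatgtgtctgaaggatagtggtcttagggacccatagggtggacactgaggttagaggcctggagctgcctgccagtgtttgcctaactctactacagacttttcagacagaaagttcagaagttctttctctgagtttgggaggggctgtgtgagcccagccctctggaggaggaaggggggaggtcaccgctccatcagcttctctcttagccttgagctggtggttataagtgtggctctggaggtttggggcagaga
The 2 matches of Insl3, 1 on each strand, lie 130 and 84 bases before the start site. AAGGTC is present in 4026 of the 32851 windows of all genes (12.3%), so a match of this length is a description and not a binding site. The longer AAGGTCA is in 4.72% of all windows and in none of those of the 6 genes.

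Depth set how much each library could show. The 21 libraries held between 357235 and 9745302 UMIs. Of the 300 pairs among all 25 libraries of the series, 204 shared at least 1 barcode and at most 27, and 9 of the 530 Leydig cells had a barcode that also occurs in another library, but 0 were Leydig cells in both. The targeted genes could not check the labels. Over all barcodes, Mlh3 was at 26.2 to 86.5 CPM (UMIs of the gene per 1e6 UMIs) in the Mlh3 libraries and 10.7 to 72.9 CPM in WT, and Cul4a was at 49.0 and 54.5 CPM in the Cul4a libraries and 5.60 to 45.7 CPM in WT. The counts come from 3′ ends, and where the deletions lie in each gene is not given in the sources used here.

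Mlh3 replicates 1 and 3 stood apart from every other library. In them the 6 genes made up 0.458% and 0.467% of the UMIs of barcodes that did not qualify, against at most 0.0816% elsewhere. Only 5 of the 86 Leydig cells of replicate 1 and 4 of the 43 of replicate 3 had 2% or more of their UMIs in the 6 genes. When every barcode was thinned to 300 UMIs, 31.6% and 22.3% of their barcodes passed with 3 or more UMIs of the 6 genes. Leydig RNA was thus counted in a large part of their droplets, and the share of Leydig cells and the counts of called genes are given with and without these libraries.

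Leydig cells took a larger share of the barcodes in each mutant strain than in WT. In WT the share of barcodes with at least 300 UMIs was 0 to 0.473%, with a median of 0.0389% over 11 libraries. In the Mlh3 libraries it was 16.9%, 1.70%, 5.41%, 4.30%, 4.27% and 4.74%, all above every WT library. The size of the share depended on the limit of 1%, since with 2% of UMIs in the 6 genes the Mlh3 libraries had 0.340 to 2.81%, and the lowest of them was below WT3 (0.473%). The Cul4a libraries had 1.01% and 1.15%, again above every WT library. The CNP libraries had 0.433% and 0.837%, and the lower of them was below WT3 (0.473%). In numbers of cells, these were 23 Leydig cells in WT, 436 in Mlh3, 62 in Cul4a and 9 in CNP. WT1 and WT2, the enzymatic libraries, held none, and 0 of 100 and 0 of 549 barcodes allow shares of up to 3.00% and 0.546%.

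**Figure D1:**
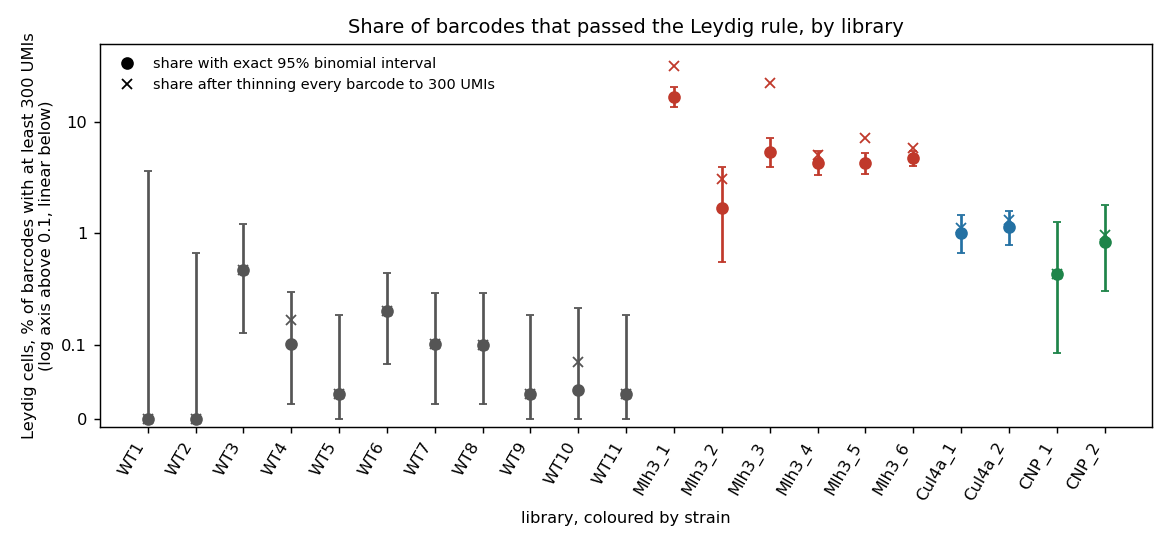
Percent of barcodes with at least 300 UMIs that qualified as Leydig cells, on a log axis that is linear below 0.1, for each library coloured by strain. Circles are shares with exact 95% binomial intervals, which cover counting error only, and crosses are shares after thinning every barcode to 300 UMIs. The 6 Mlh3 libraries sit between 1.70% and 16.9%, and the crosses of Mlh3 replicates 1 and 3 rise to 31.6% and 22.3%.

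The library was the replicate in the test of these shares. The mean was 6.22% ± 5.38 (SD, n = 6) in Mlh3 against 0.102% ± 0.137 (SD, n = 11) in WT, a difference larger than the spread by a two-sided exact permutation test (p = 8.08e-05, the smallest value the design allows, adjusted p = 0.000242 over 3 comparisons). Without Mlh3 replicates 1 and 3 it was 3.75% ± 1.38 (n = 4), with an exact permutation p of 0.000733 and an adjusted p of 0.00220. At the limit of 2% of UMIs it was 1.45% ± 1.03 (n = 6) against 0.0680% ± 0.138 (n = 11), a difference of 1.38 in place of 6.12 percentage points (exact permutation p = 0.000162, adjusted p = 0.000485). Among HiSeq libraries of mechanical dissociation it was 4.68% ± 0.532 (n = 4) against 0.0807% ± 0.0591 (n = 8), with an exact permutation p of 0.00202. Cul4a had 1.08% ± 0.0942 (n = 2, exact permutation p = 0.0128, adjusted p = 0.0192) and CNP 0.635% ± 0.286 (n = 2, exact permutation p = 0.0256, adjusted p = 0.0256). The CNP difference of 0.533 percentage points was 0.355 at the limit of 2% and 0.270 with at least 10 UMIs of the 6 genes. It was 0.346 in barcodes of at least 500 UMIs and 0.593 after thinning to 300 UMIs. The smallest p that 2 libraries against 11 allow is 0.0128. A share cannot tell a rise in Leydig cells from a loss of germ cells. When Leydig cells were counted instead among the barcodes that passed a rule of the same form for Leydig cells, Sertoli cells, telocytes or macrophages, a choice made after the data were seen, they made up 68.6% ± 19.98 (n = 6) in Mlh3 and 31.4% ± 24.7 (n = 8) in WT (exact permutation p = 0.0137, adjusted p = 0.0410). Mlh3 replicates 1 and 3 had the highest values, 94.5% and 89.6%, while the other 4 Mlh3 libraries had 41.7 to 64.6% and the WT libraries 0 to 66.7%. Without these replicates Mlh3 had 56.9% ± 10.6 (n = 4), and the difference was 25.5 in place of 37.2 percentage points and no longer past the threshold (exact permutation p = 0.0889, adjusted p = 0.167). On that base Cul4a had 54.7% ± 8.70 (n = 2, exact permutation p = 0.311). The single CNP library that could be used had 85.7%, which is a value without a usable test, since 1 library against 8 cannot give an exact permutation p below 0.111.

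The cells themselves were shallow. A Leydig cell held a median of 1090.5 UMIs (300 to 21763), and the 530 cells together held 865712 UMIs, of which 22919 came from the 6 genes. These genes made up a median of 1.86% of the UMIs of a cell and at most 8.26%. At least 3 of the 6 genes were counted in 489 cells (92.3%), all 6 in 126, and only 1 in 3 cells. Near the limits of the rule, 107 Leydig cells had 1 to 1.2% of their UMIs in the 6 genes, while 206 barcodes with 5 or more such UMIs had 0.8 to 1% and were left out. Likewise 16 Leydig cells had exactly 5 UMIs of the 6 genes, and 10 barcodes at 1% or more had 4. Many barcodes therefore lie close to the edge of the class, 198 of the 206 in Mlh3 libraries. Under 1% at any distance, 1227 barcodes had 5 or more UMIs of the 6 genes and were left out, 1195 of them in Mlh3 libraries.

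**Figure D2:**
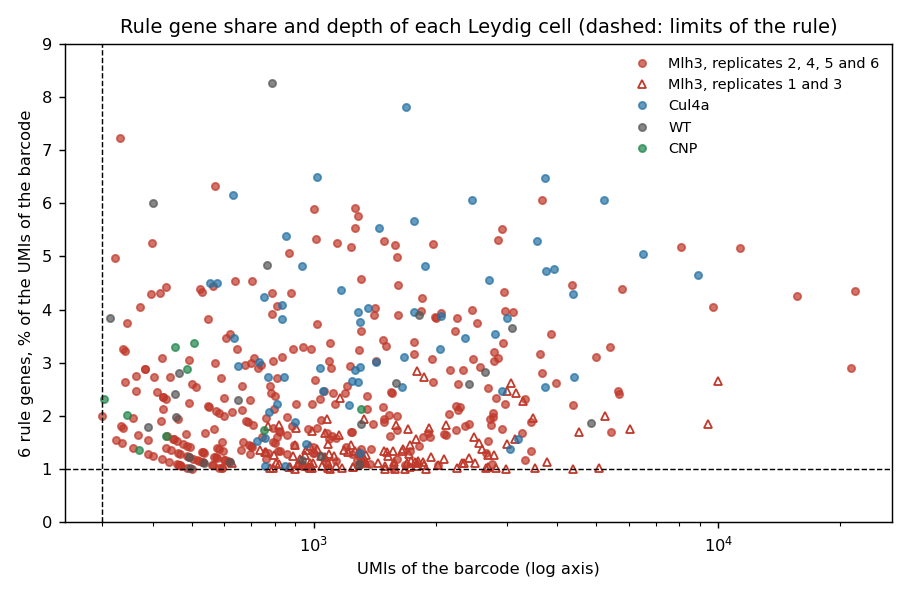
UMIs of each Leydig cell (log axis) against the percent of them that came from the 6 genes, with dashed lines at the limits of 300 UMIs and 1%. Cells of Mlh3 replicates 1 and 3 (triangles) lie mostly between 1% and 2%, while cells of the other libraries reach 8.26%.

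The mitochondrial share of the Leydig cells differed by library. Mitochondrially encoded RNA passed 10% of the UMIs in 213 Leydig cells, 212 of them from Mlh3 libraries. In Mlh3 replicates 3, 4 and 6 the median Leydig cell had 13.1%, 9.06% and 14.9%. Mlh3 replicates 1, 2 and 5 had medians of 4.32%, 3.46% and 4.56%, within the range of the WT medians of 0.319 to 7.23%. The other barcodes had medians of 4.76%, 11.4%, 15.8%, 21.7%, 12.5% and 14.5% in Mlh3 replicates 1 to 6. Over summed UMIs, Mlh3 replicate 6, with 157 of the 436 Mlh3 cells, had 15.9% in Leydig cells and 5.72% in the other barcodes, and replicate 2 had 3.38% and 9.36%. In the other 4 Mlh3 libraries the summed shares were close, with 4.79% and 4.51%, 13.0% and 13.5%, 8.97% and 9.46%, and 5.58% and 5.89% in replicates 1, 3, 4 and 5. In the Cul4a libraries the medians were 2.02% and 3.16% in Leydig cells and 0.551% and 0.811% in the other barcodes. The part of these values in the other results was not tested.

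Insl3, the hormone, and Cyp17a1, the enzyme that makes the androgen precursor, were the genes found in most of the cells. Insl3 was counted in 508 of the 530 cells (95.8%) and Cyp17a1 in 509 (96.0%). Hsd3b6 was counted in 382 (72.1%), Cyp11a1 in 377 (71.1%), Hsd3b1 in 295 (55.7%) and Star in 281 (53.0%). These shares follow from the choice of cells and from depth, so that a cell without a UMI of Star is not shown to lack it.

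The levels of the 6 genes varied widely between libraries. Levels are CPM over UMIs summed over the Leydig cells of a library, given for libraries with at least 3 such cells. Insl3 was at 36853 CPM in WT3 and at 4420 to 13015 CPM in the other WT libraries. In Mlh3 it was at 1608 to 14914 CPM with a median of 4843, and in Cul4a at 9457 and 12993 CPM. The CNP libraries had 641 and 883 CPM, lower than all others, but these values rest on 1 and 3 UMIs. Without Mlh3 replicates 1 (4247 CPM) and 3 (3034 CPM), the Mlh3 range was the same.

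Among the steroid genes, Cyp17a1 was at 2947 to 11594 CPM in WT (median 9471), 4694 to 9297 in Mlh3 (median 7400), 16015 and 18895 in Cul4a, and 13453 and 8829 in CNP. The Cul4a libraries were above every other library for Cyp17a1. Cyp11a1, which starts steroid synthesis, was at 1105 to 6177 CPM in WT, 1057 to 3165 in Mlh3, 3355 and 3330 in Cul4a, and 4484 and 6474 in CNP. Star was at 737 to 2484 CPM in WT, 565 to 1715 in Mlh3 and 1118 and 1323 in Cul4a, and it was at 0 and 294 CPM in CNP, where 1 UMI was counted. Hsd3b6, the form linked with adult Leydig cells, was at 0 to 4767 CPM in WT, 2006 to 5240 in Mlh3, 3772 and 4044 in Cul4a, and 4484 and 4414 in CNP. Hsd3b1 ranged from 720 to 3313 CPM in WT, from 457 to 2138 in Mlh3, and was at 2047 and 1977 in Cul4a and 641 and 1471 in CNP. For each of the 6 genes the WT and Mlh3 libraries overlapped. Mlh3 replicates 1 and 3 set the lower end of the Mlh3 range for Cyp17a1 (4997 and 4694 CPM), Cyp11a1 (1337 and 1057 CPM) and, by replicate 3, Hsd3b6 (2006 CPM).

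**Figure D3:**
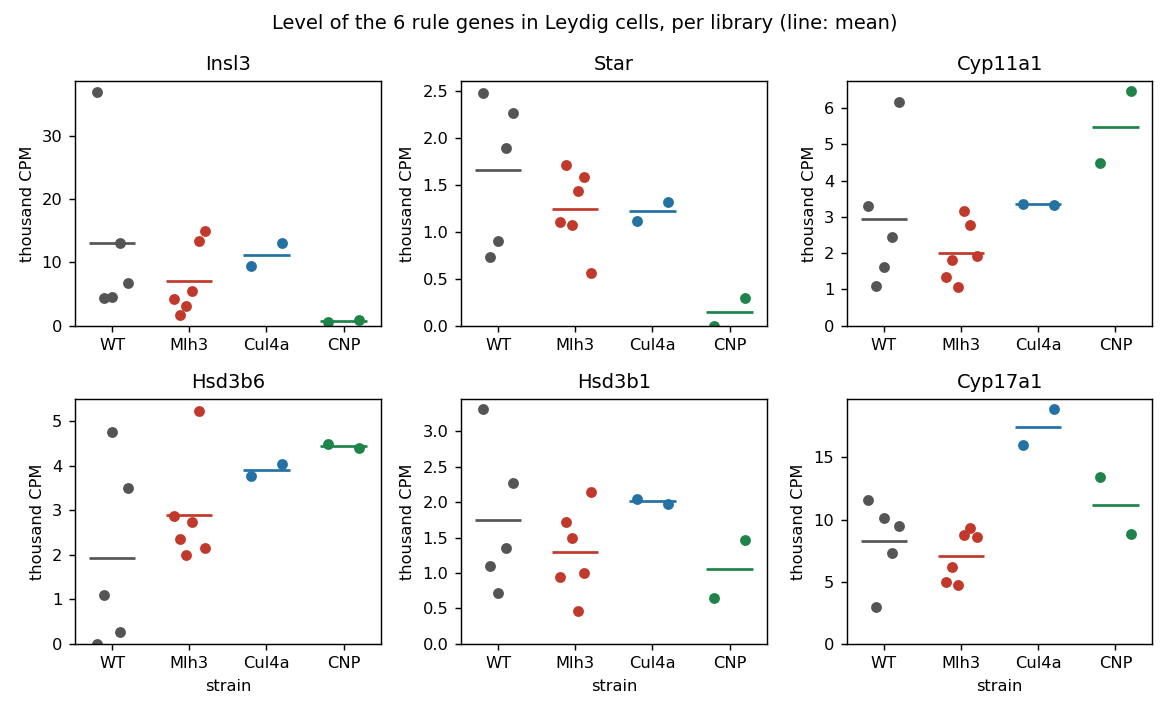
Level of each of the 6 genes, in 1000 CPM over the Leydig cells of a library, by strain (points are libraries with at least 3 Leydig cells, lines are means). Insl3 of WT3 (36853 CPM) and Cyp17a1 of both Cul4a libraries (16015 and 18895 CPM) stand above the rest.

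From cell to cell, the 6 genes were related to different degrees. Over the 436 Mlh3 cells, the Spearman rho between shares of UMIs was 0.31 for Cyp17a1 with Cyp11a1 and 0.21 for Cyp17a1 with Insl3. It was -0.08 for Insl3 with Star and -0.11 for Hsd3b1 with Hsd3b6. Over the 307 of these cells left without Mlh3 replicates 1 and 3, the same pairs had 0.32, 0.18, 0.04 and -0.11. Over the 62 Cul4a cells, the largest value was 0.49, for Cyp11a1 with Star, and Star had 0.43 with Hsd3b6. These are descriptions over cells that share libraries, that were selected on the sum of these 6 genes and that have low counts.

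Genes the rule did not use were described by comparing the Leydig cells with the other barcodes of the same library. The 7 libraries with at least 10 Leydig cells were used, which are Mlh3 replicates 1, 3, 4, 5 and 6 and both Cul4a replicates, and the measure was the log2 ratio of CPM after adding 20 CPM to both. Of 1517 genes with at least 100 UMIs in Leydig cells, 595 (39.2%) were higher in Leydig cells in every library and 315 (20.8%) lower in every library, with a median of 0.39. Without Mlh3 replicates 1 and 3, 751 genes were higher in every library. Since the cells were selected on these same profiles, and the gene lists were chosen with earlier results of these data known, no test was made. The contrast describes the cells and is no independent check of their label.

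Genes of Leydig function led this contrast. The largest excess was that of Fabp3, a fatty acid binding protein, with a median log2 ratio of 5.97 (0.78 to 7.42). It was at 2036 to 7151 CPM in the Leydig cells of the 7 libraries. Ptgds, a prostaglandin D synthase, had a median of 5.85 and Lcn2, a siderophore binding protein, 5.80. Next came the glutathione transferase Gstm1 (5.29), angiotensinogen (Agt, 5.29), the kallikrein Klk1b21 (5.19), the aldo-keto reductase Akr1cl (5.11), the betaine-homocysteine methyltransferase Bhmt (5.09) and the epoxide hydrolase Ephx1 (5.01). The others of the 20 largest were Klk1b24, Mgst1, Aldh1a1, Tmem176a, Gstm2, Vcam1, Klk1b27, Tmem176b, Igfbp7, Sult1e1 and Fxyd1, with medians from 4.91 down to 4.69. The kallikreins and the glutathione transferases belong to families of near-identical genes, so that their single values are uncertain. In Mlh3 replicates 1 and 3 every one of these 20 genes had a smaller ratio than in any of the other 5 libraries. There Fabp3 was at 1214 and 1175 CPM in the other barcodes, against 83.1 CPM in Mlh3 replicate 4 and 11.4 CPM in Cul4a replicate 1.

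**Figure D4:**
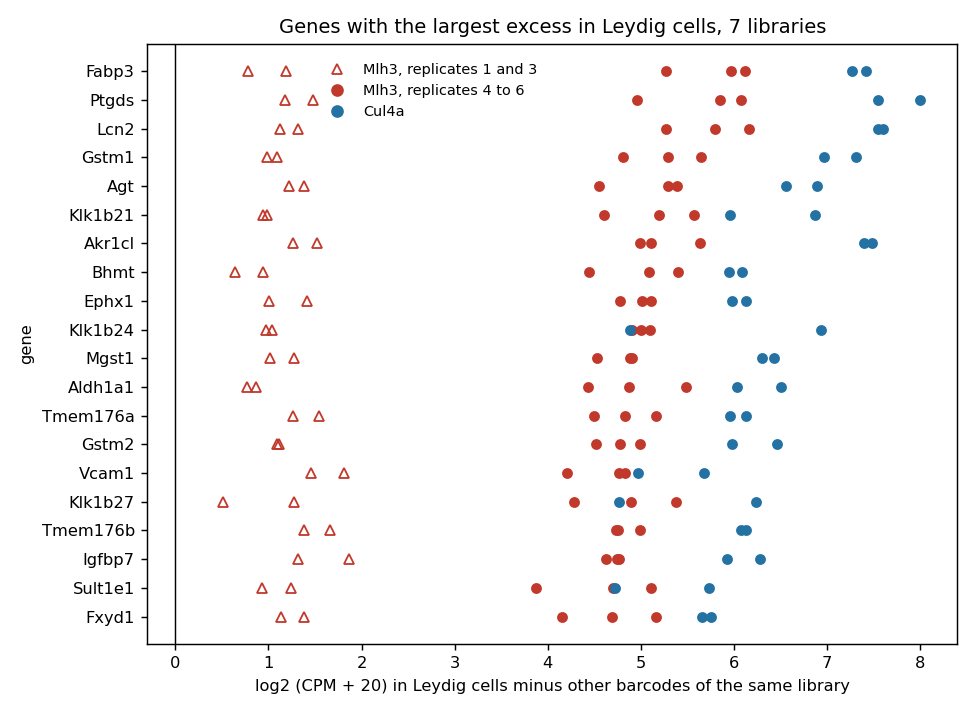
Log2 ratio of CPM + 20 in Leydig cells over the other barcodes of the same library for the 20 genes with the largest median, each point a library. The ratios of Mlh3 replicates 1 and 3 (triangles) lie below those of the other 5 libraries for every gene, and Fabp3 has the largest median, 5.97.

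By group, the lists of Leydig function were mostly above the other barcodes, to be read against the 39.2% of all genes that were higher in every library. Of androgen synthesis genes outside the rule, 9 of 10 with at least 100 UMIs were higher in every library (median 2.86), as were 4 of 5 receptors and regulators (1.97) and 16 of 16 other Leydig-enriched genes (4.76). The same held for 10 of 11 genes of cholesterol synthesis (2.67), 7 of 8 of cholesterol uptake, storage and transport (2.36) and 12 of 16 glutathione and redox enzymes (2.77). All 6 amyloid genes with enough UMIs were higher as well (2.54), but the study had picked that list on these libraries. Also higher in every library were 3 of 3 interferon and antigen presentation genes (2.15) and 7 of 9 mitochondrially encoded genes (1.33). The summed mitochondrial share was nonetheless lower in Leydig cells than in the other barcodes in Mlh3 replicates 3, 4 and 5. The immediate early and heat shock list had 2 of 4 (1.02), which is near the share of all genes. Of 7 spermatocyte markers, 7 were lower in every library (median -2.30). In Mlh3 replicates 1 and 3 they still made up 0.698% and 0.455% of the UMIs of Leydig cells, against 1.18% and 0.768% in the other barcodes. In the Leydig cells of the other libraries of this contrast they made up 0.151 to 0.204%. Of 5 elongating spermatid markers 1 was lower in every library (median -0.01), but the Mlh3 libraries could show hardly any difference. There the summed list was at 0 CPM in Leydig cells and 1.11 to 4.15 CPM in the others, below the 20 CPM added. In the Cul4a libraries it made up 1.59% and 1.17% of the UMIs of Leydig cells and 4.83% and 4.93% of those of the others. The median over all genes was 0.39.

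Markers of other somatic cells were also counted. The 10 Sertoli markers made up 0.0542 to 0.403% of the UMIs of Leydig cells over the 15 libraries with at least 3 cells, more than in the other barcodes (0.01765 to 0.353%) in 14 of the 15. In the Cul4a libraries they were at 0.0967% and 0.0951% in Leydig cells and 0.0303% and 0.0347% in the other barcodes. Over the 526 Leydig cells of the 15 libraries, 752 of 1421 Sertoli marker UMIs were of Ctsl, a protease that many cells make. Of the 10 markers 9 had UMIs in these cells, and only Rhox5 was at 0. The 9 telocyte markers made up 0 to 0.0271% in WT, 0.0346 to 0.0573% in Mlh3, 0.0644% and 0.0505% in Cul4a and 0.0589 to 0.128% in CNP. They were above the other barcodes in 13 of the 15 libraries. In Cul4a the other barcodes had 0.00331% and 0.00354%, and 67.9% and 47.1% of the Leydig cells held such a UMI. The 11 macrophage markers made up 0% in WT, 0 to 0.154% in Mlh3, 0.00190 to 0.00892% in Cul4a and 0 to 0.384% in CNP, against at most 0.0764% in the other barcodes of any library, and were higher in Leydig cells in 5 of the 15. The part of such RNA in the other results was not tested. The endothelial, T cell and peritubular myoid lists had no gene with 20 UMIs. No doublet caller was run and doublets were not removed. None of the 530 cells also passed the rule for Sertoli cells or telocytes, and 7 passed that for macrophages, 4 of them in Mlh3 replicate 1.

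The last steps of androgen synthesis were counted in every strain. Hsd17b3, which makes testosterone from androstenedione, was at 214 to 753 CPM in the Leydig cells of Mlh3 and at 872 and 1011 CPM in those of Cul4a. The WT libraries had 0 to 824 CPM and the CNP libraries 1922 and 294. The Leydig cells of these CNP libraries held only 1561 and 3398 UMIs of all genes, so their values rest on very few counts. The other barcodes had 9.23 to 130 CPM in Mlh3 and 2.79 and 3.01 CPM in Cul4a. Akr1cl was among the most even genes, with 3315 to 7867 CPM in WT, 2856 to 6881 in Mlh3, 6918 and 6972 in Cul4a and 7687 and 6474 in CNP, and it was found in 92.4% of the 526 cells of these libraries. The electron carriers of the mitochondrial enzymes were lower, with Fdx1 at 385 to 1245 CPM in Mlh3 and 1004 and 892 in Cul4a, and Fdxr at 227 to 643 and at 531 and 505 CPM. Of the genes that serve other steroids, Srd5a1 (26 UMIs) and Hsd3b7 (24 UMIs) were near the limit of what could be counted. The rest of the group had intermediate levels. Cyb5r3 had 410 UMIs, Hsd17b12 304, Cyb5a 256 and Hsd17b10 249 over the Leydig cells. Hsd17b7 had 102, Hsd17b11 82, Hsd17b4 72, Por 63 and H6pd 50.

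Among receptors, Prlr, the prolactin receptor, was the most abundant. It was at 0 to 1259 CPM in WT, 801 to 2573 in Mlh3 and 986 and 1383 in Cul4a, and it was counted in 68.4% of the cells. Lhcgr, the receptor for luteinizing hormone, was at 88.9 to 240 CPM in Mlh3 and 246 and 238 CPM in Cul4a, against 2.35 to 56.8 and 0.723 and 0.830 CPM in the other barcodes. Its highest Mlh3 library (replicate 6) was below one Cul4a library and above the other. Amhr2, the receptor for anti-Müllerian hormone, was at 286 to 583 CPM in Mlh3 and 417 and 282 in Cul4a. The estrogen receptor Esr1 had 70 UMIs in all, Nr2f2 81, the inhibin subunit Inha 159 and Nr5a1 70. The kinase subunit Prkar1a (227 UMIs) and the phosphodiesterase Pde8a (84 UMIs) act in cyclic AMP signalling, and both were also counted in the other barcodes, at 147 CPM or more in the Mlh3 libraries. Pdgfra had 58 UMIs, Jund 51, Cebpb 47, Insr 43, Nr3c1 35, Igf1r 22 and Gata6 20, too few to compare libraries.

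Ptgds and Lcn2 gave more UMIs than any of the 6 genes. Ptgds was at 8103 to 36439 CPM in WT, 5253 to 15036 in Mlh3, 26041 and 20441 in Cul4a and 4484 and 5297 in CNP. Lcn2 was at 6998 to 14100 CPM in WT, 7253 to 14612 in Mlh3, 9325 and 11209 in Cul4a and 21781 and 25015 in CNP. For Ptgds the CNP libraries were among the lowest, and for Lcn2 they were above all others, but CNP has 9 cells and 4959 UMIs in all. Agt was at 3240 to 6587 CPM in Mlh3 and 4302 and 3612 in Cul4a, and Aldh1a1, a retinaldehyde dehydrogenase, at 1501 to 4691 and at 2104 and 3345 CPM.

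Of the lists of cholesterol supply, 19 of 19 synthesis genes and 19 of 22 genes of uptake, storage and transport had at least 20 UMIs in Leydig cells, and 11 and 8 had at least 100. Of the synthesis enzymes, Msmo1 was at 0 to 836 CPM in Mlh3 and 663 and 773 in Cul4a. Cyp51 had 391 UMIs and Hmgcs1 278 UMIs over the Leydig cells. Of the transport genes, Apoe was at 1591 to 3034 CPM in Mlh3 and 4189 and 3969 in Cul4a, the acyl-CoA binding protein Dbi at 639 to 1546 and at 1592 and 1487, and the cholesterol exporter Abca1 at 88.2 to 1501 and at 303 and 416 CPM. Npc2, which moves cholesterol out of lysosomes, had 352 UMIs. For Apoe the Cul4a libraries were above every Mlh3 library, and for Abca1 the groups overlapped. Of the redox enzymes, Gstm1 was at 4181 to 9854 CPM in Mlh3 and 8908 and 12383 in Cul4a, and Gstm2, Mgst1 and Prdx1 had 2469, 1434 and 988 UMIs.

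The comparison of Mlh3 with Cul4a had the most Leydig cells on both sides. No gene of the lists of Leydig function passed the test, and genes of spermatids were lower in Mlh3. Of 17 immediate early and heat shock genes 5 were lower in Mlh3, calls that depended on Cul4a replicate 1. UMIs were summed over the Leydig cells of each library with at least 5 of them, and 11297 genes with at least 5 counts were tested by edgeR's quasi-likelihood method, with p adjusted after Benjamini and Hochberg. At an adjusted p of 0.05, 29 genes (0.257%) were higher and 342 (3.03%) lower in the 6 Mlh3 libraries than in the 2 Cul4a libraries, with a median log2 difference of 0.24 over all genes. These were 20 and 368 without Mlh3 replicates 1 and 3.

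Of 18 androgen synthesis genes tested beside the rule, 0 were called in either direction (median log2 difference -0.34), as were 0 of 24 receptors and regulators (0.05) and 0 of 23 other Leydig-enriched genes (-0.29). Among genes of cholesterol synthesis 0 of 19 were called (0.17), of cholesterol uptake, storage and transport 0 of 22 (0.06), of glutathione and redox enzymes 0 of 23 (-0.18), of the amyloid list 0 of 10 (-0.09) and of interferon and antigen presentation 0 of 9 (-0.32). With 3.03% of all genes lower, a count of 0 in lists of 9 to 24 genes is near the background. A call that is missed does not show that levels are equal. Tspo, a protein of the outer mitochondrial membrane that binds cholesterol, was at 107 to 176 CPM in Mlh3 and at 417 and 312 CPM in Cul4a. Its log2 difference was -1.14 ± 0.53 (SE, edgeR's quasi-likelihood test, adjusted p = 0.401). The difference was -0.80 ± 0.56 for Hsd17b3 (adjusted p = 0.648 by the same test) and -0.39 ± 0.74 for Akr1cl (adjusted p = 0.917). For Prlr it was 0.59 ± 0.66, and none of these genes was called.

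Spermatid RNA led the difference. The genes with the smallest adjusted p were Prm1, Prm2, Tnp1, Tnp2, Smcp, Hmgb4, Oaz3, Hils1, Gapdhs and Cypt12, each with 0 UMIs in the Leydig cells of Mlh3. All 8 elongating spermatid markers and all 4 round spermatid markers tested were lower in the Leydig cells of Mlh3. Prm2, a protamine that packs sperm DNA, was at 4416 and 3821 CPM in the Leydig cells of Cul4a and at 0 in each of the 6 Mlh3 libraries. In Mlh3, 0 UMIs of the 8 elongating spermatid markers were counted among 712899, where 3 UMIs over the strain would be 4.21 CPM. Against that limit Prm2 was at least 970-fold higher in Cul4a and the summed markers at least 3213-fold higher in Cul4a, 4073-fold in WT and 2348-fold in CNP. The other barcodes held the same RNA, with Prm2 at 13535 and 14409 CPM in Cul4a, 8562 to 15120 in WT and 6413 and 2546 in CNP, but 0 to 2.27 CPM in Mlh3. Of the 342 genes lower in Mlh3, 330 were not above 2 times the level of the other barcodes in the Leydig cells of Cul4a, and of the 29 genes higher in Mlh3, 26 were not above 2 times that in Mlh3, a split made after the data were seen.

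The remaining 12 lower genes were above the other barcodes of Cul4a by more than 2 times, and 5 of them (Fos, Ier2, Egr1, Dusp1 and Zfp36) are on the list of immediate early and heat shock genes. Zmat5, a part of the minor spliceosome, was at 9.88 to 107 CPM in the Leydig cells of Mlh3 and at 625 and 520 CPM in those of Cul4a. The groups did not overlap, and the log2 difference was -3.03 ± 0.52 (SE, edgeR's quasi-likelihood test, adjusted p = 6.65e-07). In the other barcodes Zmat5 was at 28.5 to 38.4 CPM in Mlh3 and 37.9 and 40.5 CPM in Cul4a. The others of the 12 were Socs3, Klk1, Ccdc80, Tmem45a, Tnfaip8 and Slc35a2. Klk1, a kallikrein outside the lists of Leydig function, had means of 63.9 and 289 CPM in the Leydig cells of Mlh3 and Cul4a. In the other barcodes its means were 4.50 and 10.4 CPM. Its log2 difference was -2.18 ± 0.55 (adjusted p = 0.00314 by the same test), and -2.82 to -0.99 with 1 library left out.

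The transcription factor genes Fos and Egr1 and the early response genes Ier2, Dusp1 and Zfp36 were 5 of the 17 immediate early and heat shock genes tested (log2 differences from -3.47 to 4.05, median -0.87), against 3.03% of all genes. The summed level of the whole list was at 2657 to 4200 CPM in Mlh3 and at 4473 and 2319 CPM in Cul4a, so that one Cul4a library was above and the other below every Mlh3 library. Fos was at 0 to 82.8 CPM in Mlh3 and at 682 and 119 CPM in Cul4a. Both Cul4a values were above every Mlh3 library, with a log2 difference of -2.58 ± 0.54 (SE, edgeR's quasi-likelihood test, adjusted p = 9.81e-05). Ier2 was at 0 to 82.8 CPM in Mlh3 and at 341 and 119 CPM in Cul4a, at -2.78 ± 0.61 (adjusted p = 0.000391 by the same test). Egr1 was at 0 to 72.6 CPM and at 360 and 74.3 CPM, at -2.50 ± 0.62 (adjusted p = 0.00260). Cul4a replicate 1 was the highest of these 8 libraries for each of the 5 genes. Without it 1 Cul4a library was left, assumed to vary like the other groups, and the log2 difference was -0.98 for Fos, -1.95 for Ier2, -1.10 for Egr1, -2.64 for Dusp1 and -0.54 for Zfp36. The direction was the same for all 5, and the edgeR adjusted p was 0.826, 0.659, 0.826, 0.776 and 0.959 in that order. With the lone replicate 1 in place of both, the differences were -3.40, -3.37, -3.26, -4.08 and -3.31, and all 5 were called. Without Mlh3 replicates 1 and 3 the call of Zfp36 was lost (adjusted p = 0.0690) and those of the other 4 were not. By DESeq2 on all libraries the adjusted p was 0.167, 0.232, 0.448, 0.488 and 0.726 in the order Fos, Ier2, Egr1, Dusp1 and Zfp36. Such genes can also be induced while a tissue is taken apart, and the part of dissociation was not tested.

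Higher in Mlh3, with a mean over 2 times that of its other barcodes, were 3 genes, the lysozyme Lyz2, the membrane metallopeptidase Mme and Phldb2. For Lyz2 these means were 303 and 132 CPM. Its level in Mlh3 replicates 2 and 5, 0 and 15.1 CPM, was below the lowest value of the other barcodes. The call of Mme was lost under 18 of 33 alternatives and that of Phldb2 under 7 of 32. Lyz2, a macrophage marker, was at 882, 0, 326, 571, 15.1 and 25.3 CPM in Mlh3 and at 0 and 14.9 CPM in Cul4a. The Mlh3 libraries ranged widely and overlapped those of Cul4a, and the log2 difference was 5.11 ± 1.03 (SE, edgeR's quasi-likelihood test, adjusted p = 5.48e-05). The call was lost when Leydig cells needed 2% of UMIs in the 6 genes (log2 difference 1.97, edgeR adjusted p = 0.679), by DESeq2 (5.37, adjusted p = 0.525) and without Cul4a replicate 1 (4.32, edgeR adjusted p = 0.0723). The macrophage list as a whole had 1 of 8 genes higher, the Sertoli list 2 of 9 (Cst9 and Wfdc10) and the mitochondrial list 1 of 10 (mt-Rnr1), against 0.257% of all genes. The call of Cst9 was lost under 11 of 33 alternatives, that of Wfdc10 under 15 of 32 and that of mt-Rnr1 under 3 of 33. In Mlh3 the other barcodes carried 23.8 to 389 CPM of Lyz2, and in Cul4a 5.81 and 10.7 CPM, and their part in these calls was not tested.

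**Figure D5:**
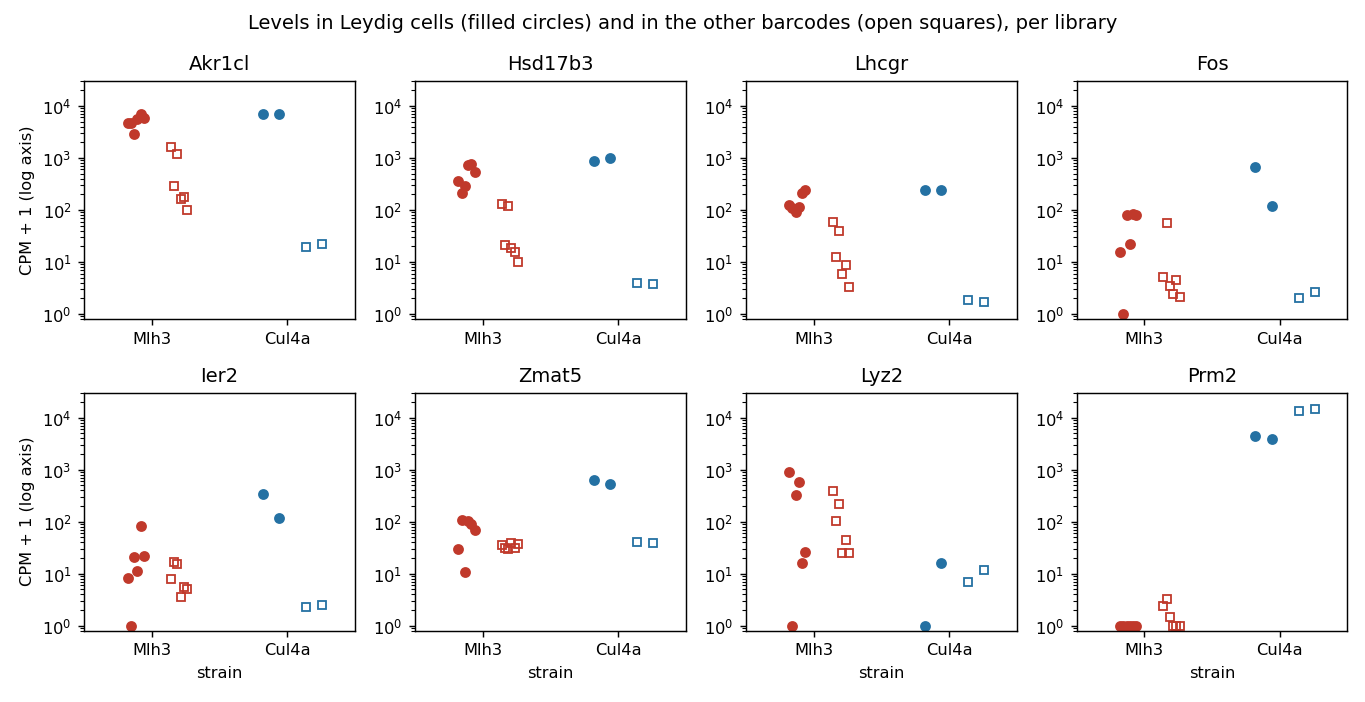
CPM + 1 (log axis) of 8 genes in the Leydig cells (filled circles) and in the other barcodes (open squares) of each Mlh3 and Cul4a library. Prm2 is at 0 in the Leydig cells of all 6 Mlh3 libraries and at 4416 and 3821 CPM in Cul4a, and the other barcodes of Mlh3 carry more Akr1cl, Hsd17b3 and Lhcgr than those of Cul4a.

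The difference between strains in Leydig cells was also set against that in the other barcodes of the same libraries, as an interaction with the library as a block. The comparison of Mlh3 with Cul4a in this fit was added after the data were seen. The other barcodes did not hold the same cells in each strain. Elongating spermatid markers made up 4.83% and 4.93% of their UMIs in Cul4a and at most 0.00113% in Mlh3. An interaction alone therefore does not show a difference between Leydig cells, and the part of this makeup was not tested. Of 22223 genes, 123 (0.553%) had a more positive and 106 (0.477%) a more negative difference in Leydig cells by edgeR's quasi-likelihood test. The negative side held 4 of 20 androgen synthesis genes, namely Hsd17b3, Akr1cl, Tspo and Hsd17b10, and 8 of 26 other Leydig-enriched genes, together with Lhcgr. The rule itself set which barcodes were the others. Barcodes with enough UMIs of its genes but too small a share stayed among them, 1195 in Mlh3 and 30 in Cul4a. For genes of Leydig function the interaction therefore cannot tell a difference between strains from this split, and these counts are a description. For Hsd17b3 the interaction was -3.46 ± 0.80 (SE, log2, adjusted p = 0.00620), with means of 481 and 941 CPM in the Leydig cells of Mlh3 and Cul4a and 51.9 and 2.90 CPM in the other barcodes. For Lhcgr it was -3.66 ± 0.83 (adjusted p = 0.00507), with 148 and 242 CPM in Leydig cells and 20.2 and 0.777 CPM in the other barcodes. For both genes the strains thus differed more in the other barcodes than in the Leydig cells. Without Mlh3 replicates 1 and 3 the interaction was -2.44 ± 0.52 (adjusted p = 0.000579) for Hsd17b3, and for Lhcgr it was -2.57 ± 0.76 and no longer called (adjusted p = 0.0599, edgeR's quasi-likelihood test). With 1 Cul4a library left, the values were as large but neither gene was called, with -3.76 (adjusted p = 0.147) and -3.79 (adjusted p = 0.346) for Hsd17b3 and -3.88 (adjusted p = 0.136) and -4.07 (adjusted p = 0.216) for Lhcgr without replicate 1 and 2 by the same test. Leaving out Cul4a replicate 1 or 2 left 21 or 2 calls in place of 229, and leaving out Mlh3 replicates 1 and 3 gave 272.

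Against WT, the comparison asked how Leydig cells of each mutant differ from those of normal testes, and it was limited by the few WT Leydig cells. Only 1 WT library, WT6, had 5 or more of them (6 cells, 11118 UMIs), and CNP likewise had 1, CNP replicate 2 (6 cells). A lone library is assumed in this fit to vary like the other groups, so the calls compare the strains with WT6 and do not show what holds for WT mice. By edgeR's quasi-likelihood test, 0 of 11297 genes were higher and 196 (1.73%) lower in Mlh3 than in WT6, with 569 genes at an unadjusted p under 0.05 and a median log2 difference of 3.09 over all genes. At their head were Tnp2, Tnp1, Prm2, Prm1, Smcp, Cypt12, H1fnt, Scp2d1, Hmgb4 and Gsg1, genes of spermatids, of which Gsg1 had 2 UMIs in the Leydig cells of Mlh3 and the others 0. Leaving out Mlh3 replicates 1 and 3 gave 0 genes higher and 153 lower. For Cul4a against WT6 0 genes were called in the same fit, with 178 at an unadjusted p under 0.05 by edgeR and 0 called by DESeq2. For CNP the fit set 1 library against 1, with 0 genes called by edgeR and DESeq2 and 82 at an unadjusted p under 0.05 by edgeR, which says little of either strain.

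With libraries of at least 3 Leydig cells, WT had 5 libraries with 24793 UMIs. Then 333 genes (2.93%) were higher and 207 (1.82%) lower in Mlh3 by edgeR's quasi-likelihood test, and the median log2 difference over all 11381 genes was 2.09. The higher calls were not stable, since DESeq2 gave 2 higher and 206 lower, and leaving out any 1 of the 5 WT libraries left 112 to 139 higher. The lower calls fell to 74 without WT6 and were 176 to 199 without any 1 of the other 4. The lower genes were led by Prm2, Tnp2, Tnp1, Smcp, Prm1, Spz1, Fam71d, Spata3, Prm3 and Spert. Higher were 3 of 18 androgen synthesis genes (Fdxr, Hsd17b4 and Hsd17b7), 3 of 24 receptors and regulators (Amhr2, Pde8a and Prlr), 3 of 19 genes of cholesterol synthesis, 2 of 22 of cholesterol uptake, storage and transport, 3 of 23 redox enzymes and 4 of 23 other Leydig-enriched genes. The medians of these lists were 1.86, 1.82, 1.47, 1.29, 1.39 and 1.55, all below the median over all genes. In this fit Mlh3 had 712899 UMIs and WT 24793. The part of depth in this and the other medians against WT was not tested, so the order of the medians is a description. Markers of other cells and of RNA quality were higher in the same fit, with 2 of 9 Sertoli markers (Cst12 and Cst9, list median 2.79), 1 of 8 macrophage markers (Lyz2, 4.23), 1 of 8 telocyte markers (Dcn, 2.21), 3 of 17 immediate early and heat shock genes (Hsp90aa1, Hspa5 and Hspa8) and 3 of 10 mitochondrially encoded genes (mt-Nd5, mt-Rnr1 and mt-Rnr2, 1.72). Their part in the calls was not tested. Over all genes, the counts were 300 and 220 without Mlh3 replicates 1 and 3.

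For Cul4a the same fit called 9 genes higher (0.0791%) and 0 lower, at a median log2 difference of 1.52 over all genes, while DESeq2 called 0. Apoe was at 0, 368, 2428, 542 and 206 CPM in WT and at 4189 and 3969 CPM in Cul4a (adjusted p = 0.0223 by edgeR's quasi-likelihood test). Both Cul4a libraries were above all 5 of WT. Zmat5, Aebp1, Klk1b21 and Nedd8 were the other genes that met the conditions for naming, with Zmat5 at 1 UMI and Aebp1 and Nedd8 at 0 UMIs in WT, against 68, 38 and 33 UMIs in Cul4a. The calls depended on single libraries, with 3, 2, 6, 0 and 5 genes called when WT replicate 3, 4, 6, 7 or 8 was left out. For CNP 0 genes were called, with 134 at an unadjusted p under 0.05.

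The interaction of Mlh3 with WT called 3 genes of 22223 (0.0135%), all more positive in Leydig cells. The one that met the conditions for naming was Sqrdl, a sulfide oxidizing enzyme of mitochondria, at 5.84 ± 1.26 (log2, SE, edgeR's quasi-likelihood test, adjusted p = 0.0296). This value sets Mlh3 against WT6 alone, whose Leydig cells held 3 UMIs of Sqrdl, and with 1 Mlh3 library left out the adjusted p rose as high as 0.871, at 4.598 ± 1.353 without replicate 6. With the 5 WT libraries of at least 3 Leydig cells it was 5.12 ± 0.83 (adjusted p = 2.74e-06 by the same test), or 6.60 ± 0.85 without Mlh3 replicates 1 and 3. The means over these libraries were 67.4 CPM in the Leydig cells of Mlh3 and 453 CPM in those of WT, and 5.84 and 390 CPM in the other barcodes. Sqrdl was thus lower in Mlh3 on both sides, and by more in the other barcodes. Those held elongating spermatid markers at 2.49 to 4.77% of UMIs in WT and at most 0.00113% in Mlh3, and the part of this was not tested. In the fit with WT6 the interaction called 27 genes without Mlh3 replicates 1 and 3.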

How the data were processed

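Single-cell RNA of dissociated mouse testis was counted by Drop-seq. The authors deposited counts of UMIs per gene and barcode, not normalized. The submitters' processing notes name bcl2fastq, STAR 2.5.3a and GRCm38/mm10. The 21 whole testis libraries were used, with barcodes of at least 300 UMIs, and the 4 sorted libraries entered no comparison. The cells and gene lists were chosen with earlier results of these data known. The study states that its WT libraries came from separate animals. The sources used here do not say this of the mutant libraries, and Mlh3 replicates 2 and 3 share an age, so p-values measure the spread between libraries.

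Shares of barcodes were compared by two-sided exact permutation tests over libraries, with Benjamini-Hochberg adjustment over 3 comparisons. Exact 95% (Clopper-Pearson) intervals and the limit of 3 counts at 0 cover counting error only. Counts were summed per library over Leydig cells and tested by edgeR 4.0.16 (quasi-likelihood, TMM, R 4.3.3) on genes with at least 5 counts, in libraries with at least 5 Leydig cells and all strains in one fit. DESeq2 1.42.0, filters, limits and left-out libraries were alternatives. Python 3.11.15, SciPy 1.17.1 and Matplotlib 3.10.9 were used, and the models were tested on simulated data. Levels are not scaled by gene length.

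Named genes were the 6 genes of the rule, members of the androgen and receptor lists with at least 20 UMIs, the 4 most abundant of each other list, the 10 smallest adjusted p per comparison among genes with a mean of at least 50 CPM and no overlap, and the 20 largest ratios to other barcodes among genes with at least 100 UMIs. Others were named after their values were seen. Some genes that this rule names are not reported here.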

Additional observations from a re-analysis of the deposited data

Results flagged for a closer look

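Among 36 groups of 4 to 10 libraries, 5 held a library far from the rest by Dixon's test, which chance gives in about 1 of 20 groups. Mlh3 replicate 1 had 16.9% Leydig cells, against a group median of 4.52%. Insl3 was at 36853 CPM in WT3 (median 6794). Mlh3 replicate 5 was high for Hsd3b6 (5240 CPM, median 2554) and Ier2 (82.8 CPM, median 15.1). Apoe was at 2428 CPM in WT6 (median 368).

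Barcodes that met the rule for Leydig cells were also counted in sorted germ cell libraries that no comparison used. There were 8 of 87 barcodes (9.20%) in the sorted secondary spermatocytes and 1 of 169 (0.592%) in the sorted spermatids.

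Some genes differed between strains in Leydig cells by another amount than in the other barcodes, by the interaction in edgeR's quasi-likelihood test. The other barcodes held much spermatid RNA in WT and Cul4a and almost none in Mlh3, so these values are not differences of Leydig cells alone. Against WT this was Sqrdl, at a log2 value of 5.84 (adjusted p = 0.0296), which rests on the lone library WT6 and 3 UMIs in its Leydig cells, and 5.12 (adjusted p = 2.74e-06) with 5 WT libraries. Against Cul4a it was Txndc2 at 6.07 and Klk1b8 at 5.72 (adjusted p = 2.61e-07 for both), Sqrdl at 5.71, Agpat2 at 5.39, Atl3 at 4.95, Lpp at 4.82, Tuba4a at 4.59 and Akap1 at 4.44. All of these but Lpp had a lower mean in the Leydig cells of Mlh3 than of Cul4a, and differed more in the other barcodes. Txndc2 was at 64.3 and 182 CPM in Leydig cells of Mlh3 and Cul4a, and at 3.79 and 521 CPM in the other barcodes. Lpp was at 97.9 and 48.7 CPM in Leydig cells and at 17.9 and 99.5 CPM in the others. Copz2 had -4.67 and Armcx2 -4.91, and the part of the barcodes that the rule left among the others was not tested. With 1 Cul4a library left, 21 and 2 genes were called without replicate 1 and 2 in place of 229. Sqrdl was then at 6.09 (adjusted p = 0.00163) and 4.69 (adjusted p = 0.148).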

How the results depend on the processing

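The higher share of Leydig cells in Mlh3 than in WT kept its direction and passed the test under 32 of 33 alternatives, with a difference of 3.98 to 7.02 percentage points when 1 library was left out. The exception was the share of barcodes of any of the 4 somatic rules without Mlh3 replicates 1 and 3, with 25.5 (adjusted p = 0.167, exact permutation test). Those of Cul4a and CNP passed under 29 of 33. On the somatic base, with or without those replicates, the differences were 23.3 (adjusted p = 0.311) and 54.3 (adjusted p = 0.167) percentage points by exact permutation tests. With 1 library left out they were 0.911 to 1.04 for Cul4a and 0.331 to 0.735 for CNP, with an adjusted p of 0.0833 without either Cul4a library and of 0.0833 and 0.167 without CNP replicates 1 and 2. A single library against 11 cannot give an exact permutation p below 0.0833, nor 1 against 8 one below 0.111, so these cases say nothing about stability. The counts out of 33 also include alternatives that left out only libraries of a strain outside the comparison. Those could not change its difference and say nothing about stability either.

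For Mlh3 against WT (196 genes), DESeq2 called 115, filterByExpr 114, libraries of at least 3 Leydig cells 540, the same without Mlh3 replicates 1 and 3 520, and the same by DESeq2 208. Leaving out 1 library gave 145 to 192 at 5 cells, and leaving out 1 WT or CNP library at 3 cells 195 to 544, with 338, 288, 195, 309 and 308 without WT replicate 3, 4, 6, 7 and 8 and 541 without CNP replicate 2. For Cul4a against WT (0 genes), libraries of at least 3 cells gave 9, 8 without Mlh3 replicates 1 and 3, 0 by DESeq2, and 0 to 9 with 1 WT or CNP library left out. No Mlh3 or Cul4a library was left out alone at 3 cells. For CNP against WT, 0 genes were called under all 28 alternatives. For Mlh3 against Cul4a (371 genes), DESeq2 called 117, or 122 at 3 cells, filterByExpr 208, and the 2% limit 221, or 213 without Mlh3 replicate 1. Leaving out 1 library gave 222 to 432, with 222 and 225 without Cul4a replicate 1 and 2. The interaction of Mlh3 with WT (3 genes) called 119 at 3 cells, 196 without Mlh3 replicates 1 and 3 as well, 30 in HiSeq libraries, 27 without Mlh3 replicates 1 and 3 at 5 cells, and 0 to 4 with 1 library left out. That of Mlh3 with Cul4a (229 genes) called 2 to 366, the highest without Mlh3 replicate 6. The causes were not tested. In these lone libraries the spread is taken from the other groups.

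With the replicate number as a block, 0 genes were called in the comparisons of Mlh3 with WT and with Cul4a by edgeR, with 140 and 201 at an unadjusted p under 0.05. That fit adds a term for each replicate number and leaves little to estimate the spread, so 0 calls there do not show a lack of differences. Same-numbered libraries did not vary together (r from -0.157 to 0.0871 over 3184 genes among pairs of different strains), so no pairing by number was seen. In Cul4a and CNP, with 2 libraries each, the deviations from the mean mirror each other, so their pairs are not separate checks.

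No WT or CNP library had 10 Leydig cells, and none of WT had 5 at the 2% limit, so these alternatives gave no value against WT. Alternatives that leave out Mlh3 replicates 1 and 3, the share of somatic barcodes and the limit of 3 cells together with a left-out library, with DESeq2 or in the interaction were chosen after seeing the data. Depth limits most of what concerns WT (19 cells in 5 libraries) and CNP (9 cells).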
